A study of Mus musculus with 9 samples.

Results

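Sox11, its close relative Sox4 and 8 genes that young neurons express, Dcx, Stmn1, Stmn2, Tubb2b, Tubb3, Dpysl3, Marcksl1 and Igfbpl1, were followed through RNAseq of the mediobasal hypothalamus (MBH), where the neurons of the arcuate nucleus that govern feeding lie. These 10 genes are 10 of the 35975 genes with at least 1 quantified transcript, and 30 of 119414 transcripts belong to them. They were picked by gene symbol with earlier results of the same comparison known, so how they differ between the groups is given as a description, without p-values. Tissue came from male wild-type C57Bl/6 mice at P21, the day of weaning. Dams drank plain water (CTRL, n = 4 libraries) or water holding 1% carboxymethyl cellulose (CMC) and 1% of the polysorbate P80, which are emulsifiers of processed food (Emul, n = 5 libraries), before mating, through gestation and while nursing. All dams ate standard chow, all pups stayed with the dam until weaning, and the methods give as many litters as there are libraries in each group. Only males were sequenced and the tissue was dissected whole, so values are averages over every cell type of the MBH.

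Sox11 and Sox4 encode SoxC transcription factors, which bind DNA through a high mobility group (HMG) box and switch on genes of neurons that have just left the cell cycle. Tubb3 and Dcx are among their known targets. Doublecortin (Dcx) and the stathmins Stmn1 and Stmn2 act on microtubules, Tubb2b and Tubb3 encode beta-tubulins from which neuronal microtubules are built, Dpysl3 encodes a collapsin response mediator that acts in growth cones, and Marcksl1 encodes a membrane protein that binds actin. Most of these genes are high in the fetal brain, and some, such as Stmn2 and Tubb3, remain on in mature neurons. SoxC factors are also expressed in oligodendrocyte precursors.

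Both SoxC genes consist of 1 exon, and their sequences are shown because reads from the HMG box can match either gene. Sox11 (ENSMUSG00000063632.6) lies on the minus strand at chr12:27334264-27342574 and Sox4 (ENSMUSG00000076431.4) on the minus strand at chr13:28948919-28953713, both in mm10 and the GENCODE M21 annotation. The next lines give 90 bases of coding exon from the HMG box of each gene, 5′ to 3′, at chr12:27342169-27342258 and chr13:28952752-28952841, with the 6 bases that differ in capitals.
Sox11: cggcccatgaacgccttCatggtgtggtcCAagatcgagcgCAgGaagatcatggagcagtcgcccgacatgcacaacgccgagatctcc
Sox4: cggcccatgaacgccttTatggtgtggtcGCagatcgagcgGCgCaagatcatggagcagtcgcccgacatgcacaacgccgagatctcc
The longest run of coding sequence that the pair share is 48 bases, and 18 of the 31-base words (the default length that kallisto matches) are common to both transcripts, out of 8281 in Sox11 and 4765 in Sox4. Sox11 shared 0.471% of its words with any other gene and Sox4 shared 0.567%, so the counts of each rest almost wholly on sequence of its own. The lincRNA Gm26735 lies opposite Sox4 over 2753 bases and was not among the quantified transcripts. The strand setting of the quantification is not given in the sources used here, so reads of Gm26735 and of Sox4 cannot be told apart.

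The 250 bases before the RefSeq start of each SoxC gene are shown because both genes were lower in Emul. They lie at chr12:27342719-27342968 for Sox11 and chr13:28953700-28953949 for Sox4 (RefSeq promoters, GRCm38.p6, minus strand, written 5′ to 3′). Capitals mark the GC box GGGCGG and the CCAAT box CCAAT, searched on both strands.
Sox11: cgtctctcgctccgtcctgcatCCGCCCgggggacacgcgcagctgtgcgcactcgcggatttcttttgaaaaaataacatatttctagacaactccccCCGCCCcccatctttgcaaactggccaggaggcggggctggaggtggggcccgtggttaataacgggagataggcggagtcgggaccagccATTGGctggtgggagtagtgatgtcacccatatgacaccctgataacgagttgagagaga
Sox4: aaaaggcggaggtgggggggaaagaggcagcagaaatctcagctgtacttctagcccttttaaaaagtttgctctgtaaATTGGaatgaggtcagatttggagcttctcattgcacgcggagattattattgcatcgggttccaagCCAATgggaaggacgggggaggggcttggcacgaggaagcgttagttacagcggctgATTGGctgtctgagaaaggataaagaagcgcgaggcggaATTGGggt
The Sox11 promoter held 2 GC boxes and 1 CCAAT box, and the Sox4 promoter held 0 GC boxes and 4 CCAAT boxes. Of 32851 RefSeq promoters of the same length, 32.7% held a GC box and 33.9% held a CCAAT box. The SOX core, searched as ACAAAG or ACAATG, was in neither SoxC promoter, and 25.2% of all promoters held it. Promoters of 5 of the 10 genes were matched, 6 promoters in all since Dcx has a pair. The SOX core occurred once in 1 Dcx promoter and 2 times in that of Tubb3. The Tubb3 promoter also held 2 GC boxes and 1 CCAAT box, both Dcx promoters held a TATA box (TATAAA, in 12.4% of all promoters), and that of Marcksl1 held 1 CCAAT box and none of the other motifs. The element TGACG was in none of the 6, against 17.8% of all promoters. Sox11 had 17 CpG dinucleotides and Sox4 had 11 in this window, against a median of 6.

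Total estimated counts ran from 28.2 M to 46.1 M per library with no difference between the groups detected (exact permutation test, two-sided, p = 0.46). Levels are given as log2 CPM (counts scaled to library size by TMM, with a prior count of 2) where a gene is compared between libraries, and as TPM (transcript abundance per length) where genes are compared with each other. The groups were compared by limma-voom over the 15340 genes whose CPM exceeded 1 in 4 libraries or more. A gene is named as called when its unadjusted limma p-value was under 0.05, the threshold of the methods without its 1.5-fold minimum. All pairs of libraries within a group differed by more than counting noise, by a chi-square of at least 6.79 per gene. Of 12 markers of the MBH, from Pomc and Agrp to Nkx2-1, 11 were tested and had mean levels between 6.90 and 222 TPM, and Kiss1 had between 0 and 13.9 counts per library. The 13 protein genes of the mitochondrial genome took 5.01% ± 0.463 of counts in CTRL (SD, n = 4) and 6.22% ± 0.379 in Emul (SD, n = 5), a share higher in every Emul library than in every CTRL library (exact permutation test, p = 0.0079, the smallest that 126 splits allow). P-values measure the spread between libraries, which the methods give as separate litters.

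The filter on low counts left 9 of the 10 genes. The SoxC pair was lower in Emul, Stmn1, Stmn2 and Tubb3 were higher, and Dcx, Tubb2b, Dpysl3 and Marcksl1 lay between a fold of 0.985 and 1.03. Thus 2 of the 9 were called lower, where 8.99% of all genes tested were, and 3 were called higher, where 6.84% were. In 2 genes (Sox11 and Sox4) every Emul library lay below every CTRL library, as in 3.8% of all genes, and in 2 (Stmn1 and Stmn2) every Emul library lay above, as in 2.8%, or 6.6% in either direction. By library size alone, without TMM scaling, 81.3% of all genes called were lower, against 56.8% with it, and the same numbers of the set were called. These shares are background only, since the comparison itself was known when the genes were picked. With Benjamini-Hochberg adjustment over all genes, Sox11 and Sox4 were called at an adjusted p-value under 0.05, as were 0.117% of all genes (0.0978% lower and 0.0196% higher). That adjusted call lay close to the threshold and was lost in 14 of 22 alternatives for Sox11 and in 17 of 22 for Sox4. With 1 library left out, it held for 1 of the pair without Emul 1 or without Emul 2 and for 0 without any of the other 7 (limma, where 2 were still called lower at an unadjusted p-value under 0.05). None of the 9 reached the 1.5-fold minimum, which with the unadjusted threshold 0.469% of all genes did. In whole tissue, fewer cells that express a gene and less of its RNA per cell cannot be told apart.

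Sox11 stood at 4.80, 4.85, 4.78 and 4.86 log2 CPM in CTRL 1 to 4 and at 4.64, 4.51, 4.55, 4.46 and 4.51 in Emul 1 to 5. The nearest libraries, CTRL 3 and Emul 1, were still apart, and the lowest value was in Emul 4. The log2 fold change (Emul over CTRL) was -0.29 (SE 0.044, 95% interval -0.39 to -0.19), a linear fold of 0.819. In estimated counts, Sox11 had 780 to 1250 in CTRL and 825 to 997 in Emul. At a mean of 991 counts, counting alone gives an SD of 0.046 on the log2 scale, against a measured SD within groups of 0.057.

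Sox4 stood at 5.21, 5.24, 5.34 and 5.29 log2 CPM in CTRL 1 to 4 and at 4.96, 5.09, 5.04, 5.04 and 5.03 in Emul 1 to 5. Again the groups did not overlap, but here Emul 1 was the lowest library and Emul 2 the highest of its group. The log2 fold change was -0.24 (SE 0.039, 95% interval -0.32 to -0.15), a linear fold of 0.848. The ratio of Sox4 to Sox11 in TPM had a mean of 2.41 in CTRL and 2.48 in Emul, with overlapping libraries.

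**Figure D1:**
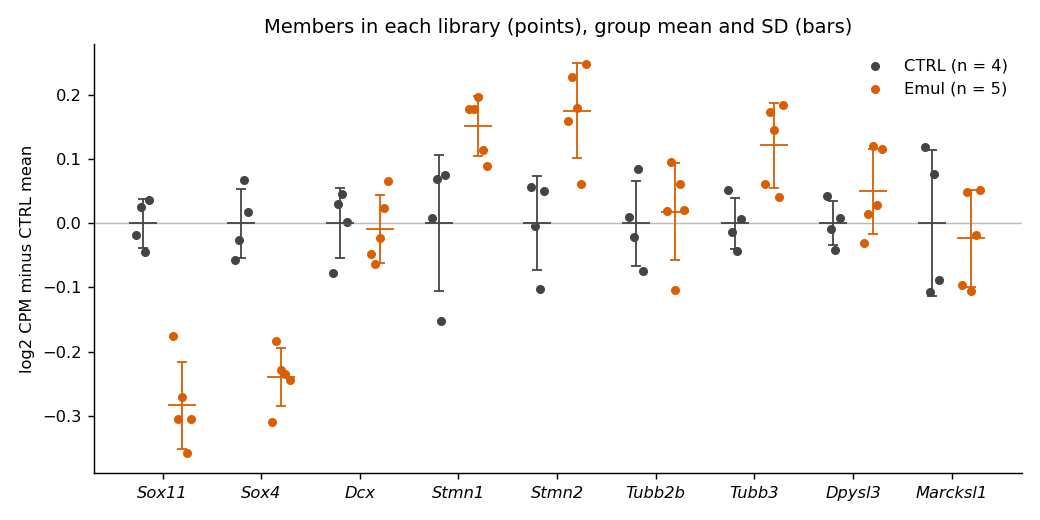
Log2 CPM of 9 genes in each library, as the difference from the CTRL mean of that gene (y axis), with CTRL (n = 4) in grey and Emul (n = 5) in orange; points are libraries, and bars are the group mean and SD. All Emul points of Sox11 and Sox4 lie below the CTRL points, those of Stmn1 and Stmn2 lie above, and the groups of the other 5 genes overlap.

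Among the microtubule genes, Dcx (chrX:143855842-143933311, minus strand) did not follow the SoxC pair. Its log2 CPM was 5.58, 5.69, 5.71 and 5.66 in CTRL 1 to 4 and 5.61, 5.60, 5.64, 5.68 and 5.73 in Emul 1 to 5. Emul 5 was the highest library and CTRL 1 the lowest, and the groups overlapped over most of their range. The log2 fold change was -0.01 (SE 0.039, 95% interval -0.093 to 0.077). Whether Dcx differs from the SoxC pair in its fold change was not tested.

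Stmn1 (chr4:134468320-134473843), a stathmin that destabilizes microtubules, stood at 8.18, 8.24, 8.02 and 8.25 log2 CPM in CTRL 1 to 4 and at 8.35, 8.35, 8.37, 8.29 and 8.27 in Emul 1 to 5. The groups were apart by little, since CTRL 4 and Emul 5 lay next to each other, and CTRL 3 was the lowest library. The log2 fold change was 0.15 (SE 0.045, 95% interval 0.051 to 0.25), a fold of 1.11. Stmn2 (chr3:8509360-8561606), the stathmin of growth cones and axons, stood at 8.47, 8.41, 8.31 and 8.47 log2 CPM in CTRL 1 to 4 and at 8.58, 8.65, 8.60, 8.48 and 8.67 in Emul 1 to 5. Here too the groups did not overlap, with Emul 4 just above CTRL 1. The log2 fold change of Stmn2 was 0.17 (SE 0.043, 95% interval 0.079 to 0.27), a fold of 1.13.

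Of the beta-tubulins, Tubb3 (chr8:123411424-123422015) was called higher and Tubb2b (chr13:34126748-34130466) was not called. Tubb3 stood at 8.68, 8.61, 8.58 and 8.63 log2 CPM in CTRL 1 to 4 and at 8.69, 8.80, 8.77, 8.67 and 8.81 in Emul 1 to 5, where Emul 4 lay below CTRL 1. Its log2 fold change was 0.12 (SE 0.036, 95% interval 0.042 to 0.20), a fold of 1.09. Tubb2b ran from 7.34 to 7.50 log2 CPM in CTRL and from 7.31 to 7.51 in Emul, so that the CTRL range lay inside that of Emul. Its log2 fold change was 0.02 (SE 0.043, 95% interval -0.074 to 0.11).

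The growth cone and membrane genes did not separate the groups. Dpysl3 ran from 6.84 to 6.92 log2 CPM in CTRL and in Emul from 6.85 to just under 7, with a log2 fold change of 0.05 (SE 0.037, 95% interval -0.032 to 0.13). Marcksl1 (chr4:129513581-129515985) ran from 7.75 to 7.98 in CTRL and from 7.75 to 7.91 in Emul, with a log2 fold change of -0.02 (SE 0.053, 95% interval -0.14 to 0.093). Marcksl1 was the most variable of the 9, since CTRL 1 and CTRL 3 lay well above CTRL 2 and CTRL 4. Igfbpl1, which encodes a secreted protein related to the insulin-like growth factor binding proteins, had 14 to 38 estimated counts per library and a CPM between 0.381 and 1.36. It failed the filter, and without a filter its log2 fold change was -0.47 (SE 0.27), with overlapping libraries (24 to 38 counts in CTRL, 14 to 35 in Emul).

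The deposited log2 CPM table of the authors, normalized by them, held 9 of the 10 genes and lacked Igfbpl1. In it Sox11 differed by -0.29 between the group means, Sox4 by -0.24, Stmn1 by 0.15 and Stmn2 by 0.18, and all 4 had no overlap between the groups. Tubb3 differed by 0.12 with overlap. These are the same 9 libraries under another scaling, so the values are no separate evidence.

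The opposite directions within the set can also be written as ratios within a library, in which library size cancels. These ratios restate the differences given above, so their size and lack of overlap are no separate evidence. Log2 of Sox11 over Stmn2, in TPM, stood at -5.73 ± 0.045 in CTRL (SD, n = 4) and at -6.19 ± 0.090 in Emul (SD, n = 5), so that Emul differed by -0.46 with no overlap. Sox4 over Stmn2 differed by -0.42, Sox11 over Tubb3 by -0.41 and Sox4 over Tubb3 by -0.36, each without overlap. Sox4 over Dcx was lower in every Emul library as well, by -0.24 on average, with 0.19 to 0.25 in CTRL and -0.12 to 0.10 in Emul. Sox11 over Dcx differed by -0.28, but Emul 1 lay within the CTRL range. Tubb3 over Tubb2b and Stmn2 over Dcx differed by 0.11 and 0.18 with overlap.

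**Figure D2:**
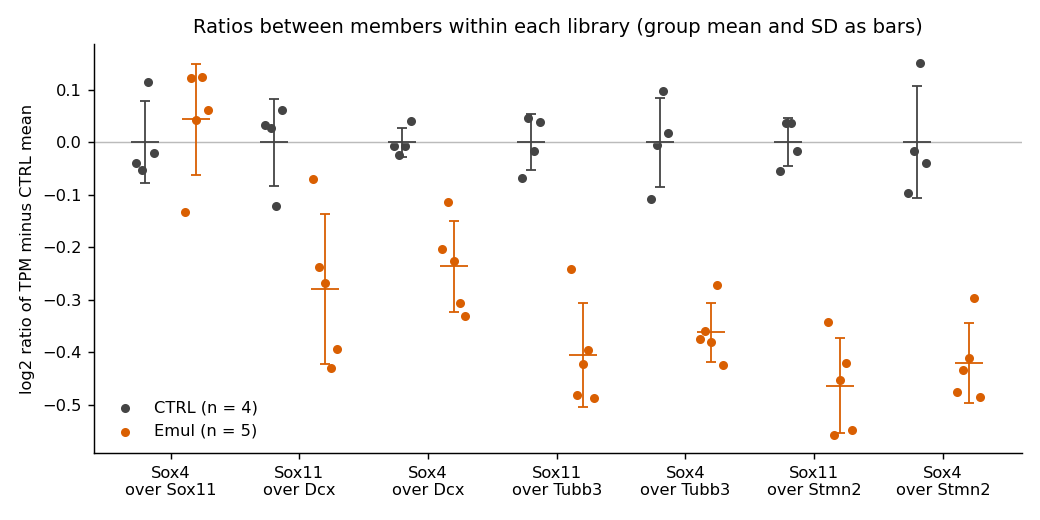
Log2 ratios of TPM between pairs of the genes in each library, as the difference from the CTRL mean of that ratio (y axis), with CTRL (n = 4) in grey and Emul (n = 5) in orange, libraries as points and the group mean and SD as bars. Sox4 over Sox11 overlaps between the groups, while Sox11 and Sox4 over Tubb3 or Stmn2 lie 0.36 to 0.46 lower in Emul without overlap.

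By level, which the choice of genes did not use, 6 of the 10 genes lay above the SoxC pair in every library, while Dcx lay beside Sox4. Over all 9 libraries the mean was 642 TPM for Stmn1 (586 to 681), 454 for Tubb3 (436 to 482), 367 for Stmn2 (341 to 398), 298 for Marcksl1 (271 to 338), 168 for Tubb2b (152 to 182) and 50.4 for Dpysl3 (45.3 to 53.2). Below them came Sox4 at 14.3 TPM (12.1 to 17.2), Dcx at 13.4 (11.8 to 14.9), Sox11 at 5.85 (4.83 to 6.95) and Igfbpl1 at 0.780 (0.357 to 1.54). Each gene was above the next in 9 of 9 libraries except Sox4 and Dcx, where Sox4 was higher in 6 of 9 and the ranges overlapped. The order of Sox4 and Dcx moved with the group, since log2 of their ratio was 0.19 to 0.25 in CTRL and -0.12 to 0.10 in Emul. For this pair it restates the difference between groups. Stmn1 lay above 99.2% of the genes tested and Sox11 above 23.2%. The total of the 13 mitochondrial genes enters TPM, so TPM was not used to compare the groups gene by gene.

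**Figure D3:**
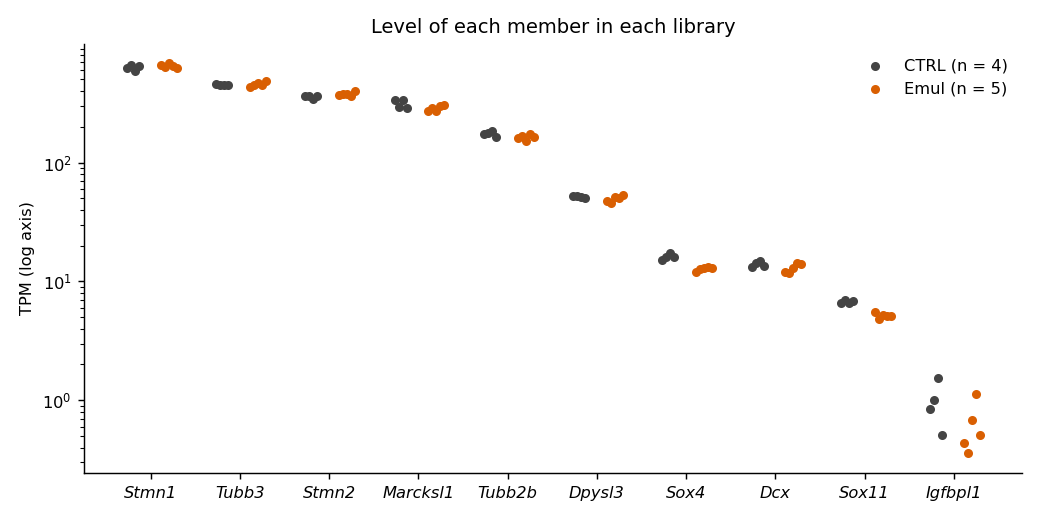
TPM of the 10 genes in each library on a log axis (y axis), ordered by mean level, with CTRL (n = 4) in grey and Emul (n = 5) in orange, each point a library. The genes run from 642 TPM for Stmn1 to 0.780 TPM for Igfbpl1, and of neighbouring genes only Sox4 and Dcx overlap in range.

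The spread between libraries of a group was small for most of the set. The pooled SD of log2 CPM within groups ran from 0.049 for Sox4 to 0.094 for Marcksl1, with 0.057 for Sox11, against a median of 0.087 over all genes tested. Of all genes tested, 83.9% had a larger SD than Sox4 and 75.9% a larger one than Sox11. Counting alone gives an SD of 0.039 for Sox4 and 0.033 for Dcx, so much of the spread of the SoxC genes is of the size of counting error, while for Stmn1, Stmn2, Tubb2b, Tubb3 and Marcksl1 it gives 0.018 or less.

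A single transcript held most counts of each gene, though less clearly in Dcx, Dpysl3 and Igfbpl1. Sox11, Sox4 and Marcksl1 each have 1 quantified transcript. The main transcript held a mean of 98.2% of counts in CTRL and 98.1% in Emul for Stmn1, 98.6% and 98.8% for Stmn2, 99.0% and 99.2% for Tubb2b, and 99.9% and 100% for Tubb3. The longest Dcx transcript held 88.9% ± 1.35 in CTRL (SD, n = 4) and 88.0% ± 1.51 in Emul (SD, n = 5). A transcript of Dcx with a retained intron came next with 5.72% and 5.95%. In Dpysl3 the long form (5479 nt) held 88.9% ± 0.964 in CTRL and 89.4% ± 0.819 in Emul, and a shorter one (2106 nt) took nearly all the rest (11.1% and 10.5%). For none of these main transcripts did the share differ between the groups by more than the larger group SD, and that of Igfbpl1 (82.5% in CTRL and 82.6% in Emul) rests on few counts.

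Some counts of the cytoskeletal genes are shared with near copies. In Stmn1, 39.0% of the 31-base words also occur elsewhere, nearly all in the pseudogene Gm11223, which was given 0 to 4.63 counts per library. In Tubb2b, 45.9% are shared, mainly with Tubb2a, which had 18959 to 30813 counts per library against 5167 to 8076 for Tubb2b. The split between Tubb2b and Tubb2a thus rests on the remaining words and is uncertain. Tubb3 shared 3.26% and Marcksl1 6.86%, and the other genes of the set shared under 1%.

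Whether libraries of a group with more Sox11 also had more of the other genes was asked on deviations of log2 CPM from the group means, which do not use the difference between groups. Over 9 libraries and 9 pairs, no correlation passed Benjamini-Hochberg adjustment. Sox11 and Stmn1 had a Pearson r of 0.59 (exact permutation p = 0.035, adjusted 0.25) and a Spearman rho of 0.83 (exact permutation p = 0.0059, adjusted 0.053). Without CTRL 2 and CTRL 4, the libraries farthest from the Sox11 median over both groups, r was 0.46. That choice follows the difference between groups. Emul 1 and Emul 4, which lay farthest from their own group mean, were kept, so it does not show whether they carry r. Sox11 and Sox4 had r = -0.56 (exact permutation p = 0.13, adjusted 0.39) and rho = -0.43 (exact permutation p = 0.27, adjusted 0.49), and r = -0.62 without CTRL 2 and CTRL 4. Counting alone gives an SD of 0.046 for Sox11 and 0.039 for Sox4, against 0.057 and 0.049 measured within groups. Much of their deviations is thus of the size of counting error, so r cannot show whether the pair rises together. That limit holds for every correlation with Sox11 given here. Marcksl1 had r = -0.64 (exact permutation p = 0.056, adjusted 0.25) and rho = -0.62 (exact permutation p = 0.076, adjusted 0.23), and Tubb2b had r = -0.48 (exact permutation p = 0.24, adjusted 0.55) and rho = -0.73 (exact permutation p = 0.041, adjusted 0.18). The other 5 pairs had r between -0.33 and 0.32. The 5 genes whose deviations were most like those of Sox11 were Trim7 (r = 0.95), Hepacam2 (0.92), Sgpp2 (0.92), Phyh (0.92) and Phf12 (0.91), all chosen as the highest of all genes tested over 9 libraries, and 10 genes had r above 0.9.

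Other Sox factors lay mostly below 0, as the SoxC pair did. Of 15 tested, 4 were called lower and 1 higher, with a median log2 fold change of -0.11 against 0.0015 over all genes tested. In either direction 33.3% were called, against 15.8% of all genes tested, on a short list chosen with earlier results known. Sox2, which keeps neural progenitors and tanycytes in their state, had a log2 fold change of -0.26 (SE 0.055, limma adjusted p = 0.10) with no overlap between the groups. Sox13 stood at -0.23 (SE 0.072, limma adjusted p = 0.18), Sox21 at -0.22 (SE 0.068, adjusted 0.18) and Sox9, an astrocyte factor, at -0.16 (SE 0.052, adjusted 0.18). Sox18, a factor of endothelial cells, was the 1 called higher, at 0.43 (SE 0.12, limma adjusted p = 0.16). Sox12, the remaining SoxC gene, differed by -0.15 (SE 0.080, 95% interval -0.32 to 0.022) and was not called. The POU class III factors, which can bind DNA beside Sox proteins, all lay below 0, as did 7552 of the 15340 genes tested. Of these 4 factors only Pou3f1 was called (log2 fold change -0.32, SE 0.12, limma adjusted p = 0.22), or 25%, against 15.8% of all genes tested. Their median was -0.15, and 2 were called lower without CTRL 3, with quality weights per sample or by library size alone.

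Most of the other genes of immature neurons were not called, and those that were mostly lay higher. Of 34 tested, 6 were called higher and 1 lower, with a median log2 fold change of 0.03. The share called in either direction was 20.6%, near the 15.8% of all genes tested. The 6 became 9 without Emul 4, and the 1 became 0 without Emul 5, 2 without Emul 2 or Emul 4, and 3 by library size alone. The 1 called lower, named after its value was seen, was Cntn2, an axonal cell adhesion protein (-0.17, SE 0.063, limma adjusted p = 0.23), with overlapping groups. Gap43, the growth cone protein, had a log2 fold change of 0.18 (SE 0.039, limma adjusted p = 0.10), and its partner in the growth cone membrane, Basp1, had 0.12 (SE 0.029, adjusted 0.11). Gpm6a, a membrane protein of neurites, stood at 0.11 (SE 0.032, limma adjusted p = 0.17) and Calb2, the calcium binding protein calretinin, at 0.20 (SE 0.059, adjusted 0.17). Groups did not overlap in Gap43, Basp1 and Gpm6a, and they overlapped in Calb2. Neurod1, a factor of newly formed neurons, had 0.15 (SE 0.19, 95% interval -0.26 to 0.57), too wide an interval to place it. Eomes, a marker of intermediate progenitors, had 2.03 to 9.08 counts per library and was not tested, as were Neurod4 and Nhlh1.

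Close relatives and partners of the cytoskeletal genes were mostly not called. Of 22 tested, 2 were called higher and 0 lower (limma, edgeR and DESeq2), with a median log2 fold change of 0.04, the 2 became 4 without CTRL 1 or Emul 3, and the 0 became 1 without CTRL 3 or Emul 1. The share called by limma, 9.09%, was below the 15.8% of all genes tested. Tubb2a had 0.10 (SE 0.035, limma adjusted p = 0.20) and Tubb5 had 0.08 (SE 0.030, adjusted 0.21). Not called were Tuba1a (0.06), Stmn3 (0.10), Stmn4 (0.08), Dpysl5 (0.06), Crmp1 (0.03), Dpysl2 (-0.03) and Marcks (-0.02). In TPM, Tuba1a (1196) and Tubb2a (887) lay above all 10 genes of the set.

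Mature neuron genes were more often higher than lower. Of 16 tested, 7 were called higher and 1 lower, with a median of 0.09, and the 7 became 3 without CTRL 3, Emul 2 or Emul 5. In either direction 50% were called, against 15.8% of all genes tested, on a short list chosen with earlier results known. Rbfox3, which encodes the neuronal nuclear protein NeuN, had a log2 fold change of 0.12 (SE 0.031, limma adjusted p = 0.12) and Syp, synaptophysin, 0.13 (SE 0.032, adjusted 0.12), both without overlap between the groups. Slc17a6, the vesicular glutamate transporter of the hypothalamus, stood at 0.29 (SE 0.098, limma adjusted p = 0.19) and Thy1 at 0.12 (SE 0.046, adjusted 0.24). Slc32a1, the vesicular GABA transporter, was the 1 called lower, at -0.27 (SE 0.12, limma adjusted p = 0.31). At the same unadjusted threshold that 1 became 0 by edgeR and by DESeq2, and by limma without any 1 of CTRL 1, CTRL 2, CTRL 3, Emul 2, Emul 3 and Emul 5, and 3 without CTRL 4, Emul 1 or Emul 4. Gad1 (-0.24, SE 0.12) and Gad2 (-0.23, SE 0.13), also genes of GABA neurons, were the only others below 0. Neither was called by limma with all libraries. The summed level of the list, in TPM computed without the mitochondrial genes, was 6303 to 6710 in CTRL and 6544 to 6925 in Emul, so libraries overlapped. Stmn2 and Tubb3 belong to mature neurons too, and the part of this in their values was not tested.

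Dividing and progenitor cells showed no difference that was called. Of 17 genes tested, 0 were called in either direction at an unadjusted p-value under 0.05 by limma, edgeR or DESeq2, with a median of -0.01, and 2 were called lower without CTRL 2 and 1 without Emul 2 or Emul 5. Among all genes tested, 15.8% were called by limma. Mki67 had a log2 fold change of -0.01 (SE 0.23) and Top2a -0.06 (SE 0.16), at 0.612 and 2.67 TPM, so both intervals are wide. The summed level of the list without mitochondrial genes was 182 to 206 TPM in CTRL and 179 to 204 in Emul.

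Genes of oligodendrocyte precursors and newly formed oligodendrocytes, in which SoxC genes are also on, lay mostly below 0. Of 11 tested, 5 were called lower and 0 higher (limma, or 1 higher by edgeR), with a median of -0.13, the 5 became 3 without CTRL 1, CTRL 3, Emul 1 or Emul 3, and the 0 became 1 without Emul 4 or Emul 5. By limma 45.5% were called, against 15.8% of all genes tested, on a short list chosen with earlier results known. Enpp6, a marker of newly formed oligodendrocytes, had a log2 fold change of -0.31 (SE 0.087, limma adjusted p = 0.15), Bmp4 had -0.30 (SE 0.091, adjusted 0.18), Bcas1 -0.18 (SE 0.059, adjusted 0.20) and Olig1 -0.15 (SE 0.067, adjusted 0.30). Pdgfra, the receptor that defines the precursors, differed by -0.00047 (SE 0.045), and Gpr17 by -0.13 (SE 0.086), and neither was called. Tcf7l2 was the 1 gene of the list above 0, and its log2 fold change was the largest in size, at 0.66 (SE 0.36). Its log2 CPM also had the widest spread of the list (SD 0.37 in CTRL and 0.79 in Emul). Its groups overlapped, and it was not called by limma with all libraries. The summed level of the list without mitochondrial genes was 792 to 886 TPM in CTRL and 700 to 829 in Emul, with overlap and no marker at 0. Their part in the lower Sox11 and Sox4 values was not tested.

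Markers of other cell types were mostly not called. Of 7 astrocyte and tanycyte genes, Gfap was called lower (log2 fold change -0.40, SE 0.088, limma adjusted p = 0.10, no overlap) and 0 higher, with a median of -0.04. The share called was 14.3%, near the 15.8% of all genes tested, and 2 were called lower without CTRL 1, Emul 4 or Emul 5. The summed level of these genes, without mitochondrial genes and without TMM scaling, was 769 to 846 TPM in CTRL and 648 to 749 in Emul, without overlap. Its largest parts are Slc1a3 (log2 fold change -0.04) and Gfap, with means of 306 and 214 TPM when mitochondrial genes are included. The sum thus rests heavily on Gfap and is not a value for the list as a whole. Of 8 endothelial and 6 microglia genes, 0 were called at an unadjusted p-value under 0.05 by limma, edgeR or DESeq2, and Cldn5 had -0.05 (SE 0.086). Without CTRL 3, 1 endothelial gene was called lower, and without CTRL 3, CTRL 4 or Emul 2, 1 microglia gene was called higher. Their summed levels were 226 to 245 TPM and 215 to 250 TPM for endothelial genes, and 168 to 184 TPM and 169 to 182 TPM for microglia, in CTRL and Emul respectively. Of 11 MBH markers tested, 1 was called, Fezf1 (-0.32, SE 0.10, limma adjusted p = 0.18), which marks the ventromedial nucleus, and 2 were called lower without CTRL 1 or CTRL 3 and 1 higher without Emul 4. On that list 9.09% were called, below the 15.8% of all genes tested. All 13 mitochondrial genes were called higher, with a median log2 fold change of 0.37, and 3 of them, mt-Nd6, mt-Nd5 and mt-Nd1, had limma adjusted p-values of 0.0156, 0.0246 and 0.04997. Outside the mitochondrial list and the SoxC pair, no listed gene had an adjusted p-value under 0.05. With mitochondrial genes left out of the fit, the called genes of the set were again 2 lower and 3 higher, and 0 of them at an adjusted p-value under 0.05 (limma). The part of the mitochondrial share in these values was not tested.

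**Figure D4:**
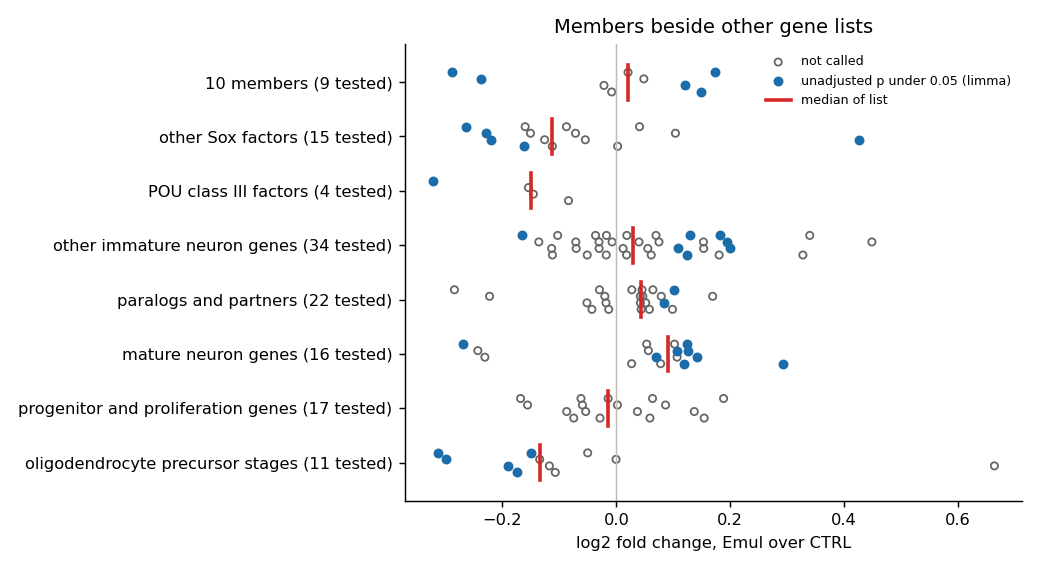
Log2 fold change, Emul over CTRL (x axis), of each tested gene of 8 lists (rows), with filled points for an unadjusted limma p-value under 0.05, open points for the rest and a red line at the list median. The 9 tested genes of the set split into 2 lower and 3 higher, other Sox factors have a median of -0.11, and mature neuron genes have a median of 0.09.

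Base composition moved with the comparison over all genes. Among protein-coding genes split into 4 equal classes by GC content of the main transcript, 5.88% were called lower in the lowest class and 13.5% in the highest, while 10.8% and 2.86% were called higher. Sox11 has a GC content of 46.5% and Sox4 of 51.1%, in the middle classes, where 7.94% and 9.20% were called lower. Tubb3, which was called higher, has 57.9% and lies in the highest class. With the trend against GC content removed from each library, an alternative added after the data were seen, the log2 fold change was -0.29 for Sox11 and -0.24 for Sox4. Of 466 single-exon protein-coding genes tested, 8.15% were called lower, against 9.15% of genes with more exons. Among the other single-exon Sox genes and the POU class III genes, also of a single exon, only Sox14 (0.10) lay above 0. Of the Sox genes with more exons, Sox5, Sox6, Sox8, Sox9, Sox10 and Sox13 lay below 0 as well, and Sox7, Sox17 and Sox18 above. Over all protein-coding genes tested, 49.1% of those with a single exon lay below 0, and 49.8% of those with more. The part of gene structure in these values was not tested.

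Across the alternatives in processing, 9 of which leave out 1 library each, the called genes of the set were 2 lower and 3 higher in all 22. Log2 fold changes ran from -0.32 to -0.27 for Sox11, from -0.27 to -0.22 for Sox4, from 0.10 to 0.17 for Stmn1, from 0.14 to 0.20 for Stmn2 and from 0.089 to 0.15 for Tubb3. Those of Dcx, Tubb2b and Marcksl1 lay on both sides of 0.

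**Figure D5:**
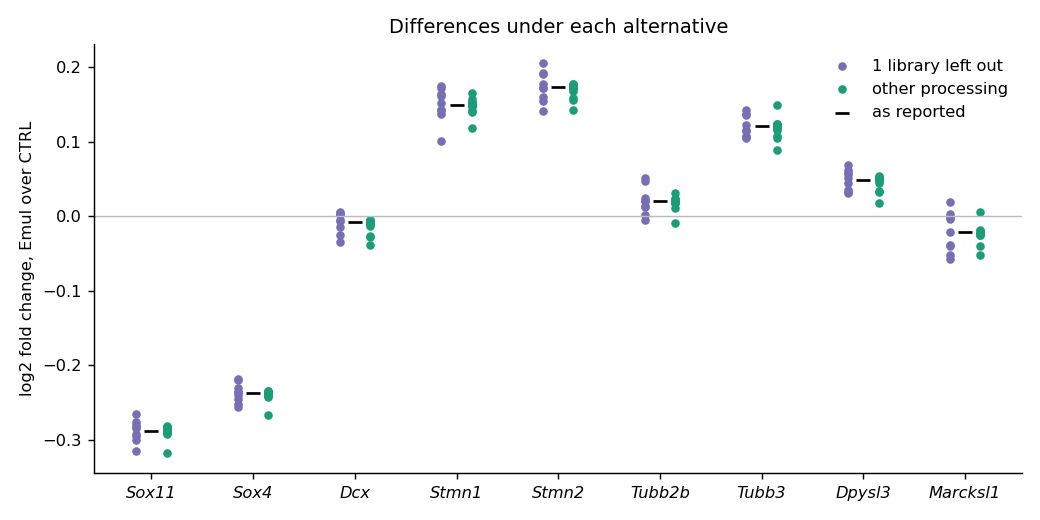
Log2 fold change, Emul over CTRL (y axis), of the 9 tested genes under each alternative, with 9 fits that leave out 1 library in purple, the other fits in green and the reported value as a black dash. Sox11 and Sox4 stay at or below -0.22 and Stmn1, Stmn2 and Tubb3 stay at or above 0.089, while Dcx, Tubb2b and Marcksl1 lie near 0.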

How the data were processed

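RNA from the MBH of 9 male mice at P21 (4 CTRL and 5 Emul) was sequenced as stranded, paired-end mRNA libraries. Per the submitters' processing notes, FastQC 0.11.9, kallisto 0.46.1 and edgeR 3.40.1 were used on mm10. The Ensembl release behind the index, and whether kallisto used strand, is not given in the sources used here. For each library the authors deposited estimated counts from kallisto, not normalized, beside TPM values, over 119414 transcripts. A further deposited table gives log2 CPM for 14592 named genes and was used as it stands. Groups and replicate numbers come from the sample labels.

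Transcripts were matched to GENCODE M21 genes (97.8%), and the unmatched ones, with 1.20% to 1.27% of the counts, were left out. Transcript counts were added up by gene, with rounding where edgeR or DESeq2 needed whole numbers. A gene was tested if its CPM exceeded 1 in 4 libraries or more. The groups were compared with limma-voom (limma 3.58.1, R 4.3.3) with TMM from edgeR 4.0.16, without covariates, and p-values were adjusted over all genes tested (Benjamini-Hochberg). Single values and correlations used two-sided exact permutation tests, the latter over the 2880 orders within groups. With 28.2 M to 46.1 M counts per library, the spread between libraries sets the precision of the abundant genes, and counting error comes close to it for Sox11 and Sox4. The fit was tested on simulated counts.

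The 10 genes and all lists were chosen with earlier results of these data known. Named were the 10 genes, from each list any gene with an adjusted p-value under 0.05, up to 4 with the smallest unadjusted p-values under 0.05, a fixed set of close relatives and stage markers, and the 5 genes most like Sox11 in deviations. Other fits used DESeq2 1.42.0, the quasi-likelihood test of edgeR, limma-trend, quality weights per sample, size factors by median of ratios, plain library size, no mitochondrial genes, 2 other filters, counts scaled from TPM by length, the replicate number as a block, each library left out, the authors' table, and other thresholds. Removal of a GC trend (lowess, span 0.3) was added after seeing the data. Shared 31-base words were counted on GENCODE transcripts and motifs on RefSeq promoters.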

Additional observations from a re-analysis of the deposited data

How the results depend on the processing

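In all 22 refits, 2 tested genes of the set were called lower and 3 higher at an unadjusted p-value under 0.05. The set had 9 tested genes, or 10 without a filter on low counts and with filterByExpr. Other thresholds moved these counts. At an adjusted p-value under 0.05, 18 genes in all were called, with 2 of the set lower and 0 higher (limma), at an adjusted p-value under 0.1 they were 61, 2 and 0, and with the 1.5-fold minimum they were 72, 0 and 0. Genes called at an unadjusted p-value under 0.05 were 2428 as reported, 1907 to 2654 with 1 library left out, and 2952 without a filter on low counts, where 27391 genes were tested. Genes called at an adjusted p-value under 0.05 numbered 18 as reported, 341 by DESeq2, 60 by library size alone, 36 with quality weights, 32 by edgeR, 10 with median-of-ratios size factors or with filterByExpr, 8 by limma-trend, 6 without mitochondrial genes or with counts scaled from TPM, 5 without a filter or in the authors' table, and 0 to 24 with 1 library left out. The 0, by limma without CTRL 2, stood beside 2081 at an unadjusted p-value under 0.05. Of the set, 3 were called by adjusted p-value with DESeq2, 2 by edgeR, quality weights and library size alone, 1 with median-of-ratios size factors, filterByExpr, the GC trend removed, or without Emul 1 or Emul 2, and 0 in the rest (limma). The cause was not tested. Signs changed only near 0. Dcx, -0.01 as reported, was 0.00295 without CTRL 2, 0.00474 without CTRL 3, 0.00158 without Emul 1 and 0.00563 without Emul 2 (range with 1 library left out -0.0342 to 0.00563). Tubb2b, 0.02 as reported, was -0.00969 by library size alone and -0.00471 without CTRL 4 (range with 1 library left out -0.00471 to 0.0511). Marcksl1, -0.02 as reported, was 0.0186 without CTRL 1, 0.00264 without CTRL 3 and 0.00602 with the GC trend removed (range with 1 library left out -0.0575 to 0.0186). By log2 CPM in place of TPM, which is not per length, Tubb3 ranked 1, Stmn2 2, Stmn1 3, Dcx 7 and Sox4 8. For 30 called genes of the other lists, 573 of 660 refitted values were still called, 87 were not, and 0 changed sign. Other Sox factors called lower were 7 by library size alone, against 4, and mature neuron genes called higher were 2 with the block, against 7. Replicate numbers did not pair the libraries, since same-numbered CTRL and Emul libraries had correlations of -0.163 to 0.021 in their deviations over 4 pairs and 0 CTRL libraries were most like their own number. With the replicate number as a block, 1893 genes were called at an unadjusted p-value under 0.05 and 1 at an adjusted one, with 2 of the set lower and 3 higher at the unadjusted and 0 at the adjusted threshold. Depth limits Igfbpl1 most.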
